A study of Drosophila melanogaster with 8 samples.

Results

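Rab GTPases are small proteins that switch between a GDP-bound and a GTP-bound state and, when bound to GTP, recruit the effectors that bud, move, tether and fuse membranes. Each Rab marks a step of membrane traffic: Rab5 marks early endosomes, Rab4 and Rab11 the routes back to the cell surface, Rab7 late endosomes and lysosomes, and Rab1 and Rab2 traffic between the endoplasmic reticulum (ER) and the Golgi. Embryonic macrophages of the fly engulf dying cells and secrete basement membrane, and both activities run through this system. The Rab genes were taken as every gene whose deposited name starts with Rab or RabX followed by a digit. This gave 35 of the 17494 genes in the tables, of which 33 encode Rab GTPases and 2, Rab3-GAP and Rab3-GEF, encode regulators of Rab3.

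The libraries were polyA RNA from macrophages of Drosophila melanogaster embryos collected at 29°C and at stage 11, dissociated and sorted by flow cytometry for mCherry. By their titles, 4 are wild type (WT) and 4 are CG9005 mutant, and macrophages of both carry the same 3xMcherry tag. The labels used here name neither the CG9005 allele nor the promoter that drives mCherry, nor do they tell if each library had its own embryo collection. The p-values therefore rest on variation among these libraries alone, some of which may be technical. A stage field counts from 11 in the first WT library to 18 in the last mutant library, whereas collection at stage 11 is stated for both genotypes. The field is 11 to 14 in WT and 15 to 18 in the mutant, so a fit that includes it can barely separate it from genotype. Levels are in transcripts per 1000000 (TPM), which are corrected for gene length, so levels of different genes can be ranked.

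Recovered depth was 15566337 to 18701003 reads per library. The mean CG9005 level was 87.8 ± 18.4 TPM in WT libraries and 89.1 ± 12.2 TPM in mutant libraries (SD, n = 4 each), so it does not check the labels. The macrophage receptor genes NimC4 (5897 TPM in WT) and crq (465 TPM) were abundant, while Hml and NimC1 were under 0.5 TPM in each library and He was listed at 0 in 6 libraries. Of 15 tested macrophage markers, Sr-CI, a scavenger receptor gene, was called higher in the mutant (394 ± 20.7 and 739 ± 29.1 TPM, limma adjusted p = 0.000818) and gcm2 lower. Among markers of other cell types, 2 of 7 tested muscle genes were called higher in the mutant (Mlc2 and HLH54F). Called lower were 1 of 4 crystal cell genes (PPO1) and 1 of 4 glial genes (gcm2, also on the macrophage list). Of 6 epidermal, 4 tracheal or gut, 3 germline and 1 fat body gene tested 0 were called, and of all tested genes 1.67%. The part of these cell types in the Rab values was not tested. WT replicate 3 stood apart from the other WT libraries, with a chi-square of recovered reads per gene of 95.3 to 113 in its pairs and 46.9 to 69.0 in the other WT pairs. It also had the highest sum of 6 epidermal markers, 186.0 TPM beside 80.6 to 127 TPM in the other 7 libraries, and the highest sum of 9 neuronal markers. Without it 0 Rab genes were called, as with it. All 37 mitochondrially encoded genes had a listed value of 0 in all 8 libraries, so a gene at 0 is described here as listed at 0.

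In WT macrophages 22 of the 33 Rab GTPase genes were broadly expressed, meaning at least 1 TPM in each of the 4 libraries. Another 9 were near zero, under 1 TPM in each WT library, and 2 lay between, Rab40 and Rab9Fb. Judged by the lowest WT library, Rab23 at 1.17 TPM was just inside the broadly expressed class and Rab40 at 0.997 TPM just outside it. The 33 genes summed to 1983 ± 273 TPM in WT (SD, n = 4) and 1904 ± 111 TPM in the mutant. A few genes held most of this sum, since the 5 highest made up 64.3% to 69.2% of Rab TPM in the WT libraries and the 12 highest 93.4% to 95.6%.

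**Figure D1:**
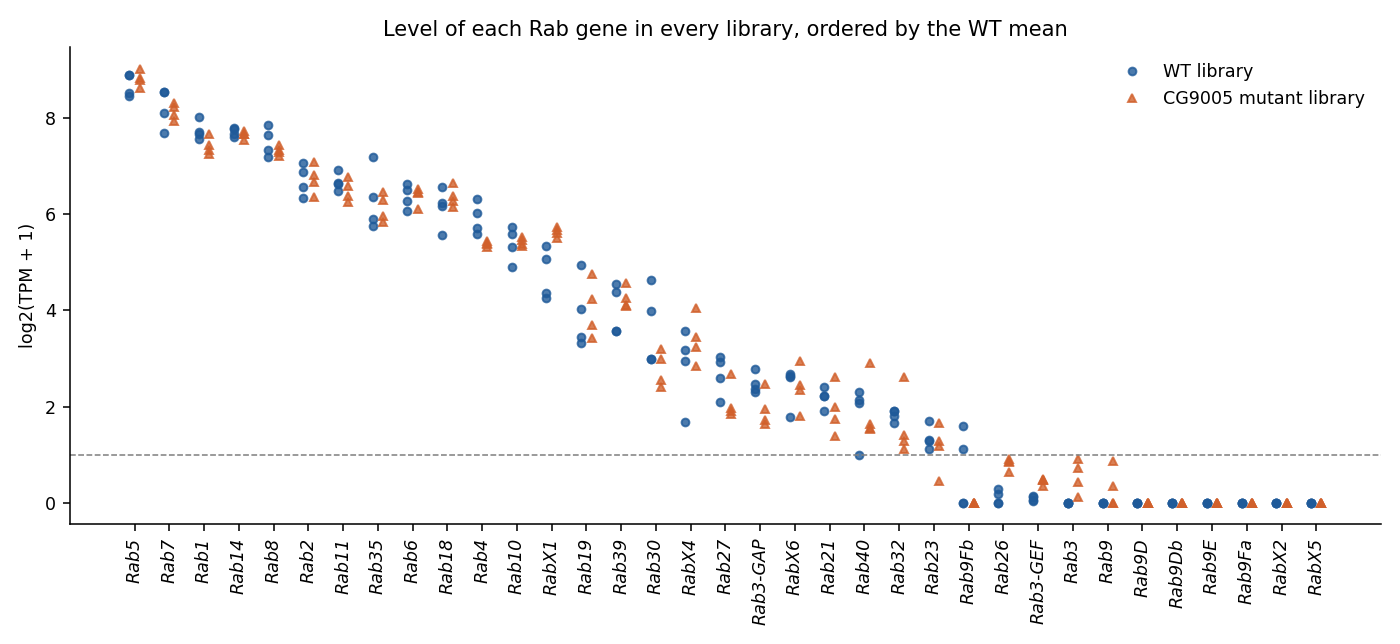
Level of each of the 35 Rab genes as log2(TPM + 1), with 1 point per library and the genes ordered by the WT mean. The dashed line marks 1 TPM, and the levels descend from Rab5 (418 TPM mean in WT) to 6 genes listed at 0 in all 8 libraries.

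Rab5, the early endosome Rab, was the highest, with 368, 476, 349 and 478 TPM in WT replicates 1 to 4, and it lay above 96.6% of all tested genes. It alone carried 21.0% of Rab TPM. Rab21, which also acts on early endosomes, was low, with 4.33, 3.67, 3.64 and 2.73 TPM.

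Rab7, which takes over from Rab5 as endosomes mature and directs fusion with lysosomes, was second, with 276, 372, 206 and 374 TPM in WT. Rab5 was above Rab7 in each of the 4 WT libraries, by a ratio of 1.28 to 1.70. The other genes of the late endosome and lysosome group were much lower. Rab39, linked to lysosomes and autophagy, had a mean of 16.0 ± 5.96 TPM, and Rab32, known in the fly for pigment granules of the eye, 2.54 ± 0.295 TPM. Rab9, which carries cargo from late endosomes back to the Golgi, was listed at 0 in every WT library.

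Among the recycling Rabs, Rab14 had 194, 221, 218 and 203 TPM in WT, the most even level of the broadly expressed Rab genes, with a coefficient of variation of 6.04%. Rab14 is known from fly blood cells for its part in phagosome maturation. Rab11, the Rab of slow recycling and of vesicles bound for the plasma membrane, had a mean of 102 ± 13.7 TPM, and Rab4, the Rab of fast recycling from early endosomes, 60.7 ± 14.1 TPM. Rab35, known from cultured fly cells for its part in engulfment, was uneven, with 52.9, 81.2, 145 and 58.9 TPM. WT replicate 3, the library that stood apart, held the high value, and the other WT libraries lay within the range of the mutant libraries or just below it.

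In the ER and Golgi group Rab1, needed for ER to Golgi transport, was highest, with 189, 261, 202 and 209.8 TPM in WT. Rab2 (106 ± 23.6 TPM), Rab6 of the Golgi (82.6 ± 14.0 TPM) and Rab18 of the ER and lipid droplets (71.4 ± 19.3 TPM) followed. Rab19 and Rab30, both linked to the Golgi, were lower at 16.1 ± 9.66 and 13.1 ± 8.01 TPM, and varied the most between WT libraries, with coefficients of variation of 60.0% and 61.0%. The median over the broadly expressed Rab GTPases was 25.4%, beside 26.7% over all genes with at least 1 TPM in each WT library.

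The exocytic Rabs split in their levels. Rab8 and Rab10, which act in transport to the plasma membrane, had means of 184 ± 38.2 and 41.7 ± 10.1 TPM. In fly epithelia Rab10 is known for routing basement membrane proteins to the basal side. Rab27, of regulated secretion, was at 5.53 ± 1.75 TPM, Rab26 was under 0.25 TPM in each WT library, and Rab3, the synaptic vesicle Rab, was listed at 0 in every WT library.

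The order of neighbours in this ranking was mostly not resolved by 4 libraries. Of 21 neighbouring pairs among the broadly expressed genes, the WT ranges overlapped for 20 and did not for 1, Rab8 above Rab2. The higher gene of a pair was above the lower one in all 4 WT libraries for 5 pairs, which were Rab5 over Rab7, Rab7 over Rab1, Rab8 over Rab2, Rab10 over RabX1 and RabX1 over Rab19. Rab1 and Rab14, or Rab2 and Rab11, exchanged places between libraries.

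Of the 10 Rab rows that were near zero in WT, 8 were listed at 0 in all 4 WT libraries and 6 in all 8 libraries. Those 6 were RabX2, RabX5, Rab9D, Rab9Db, Rab9E and Rab9Fa. RabX2, Rab9D, Rab9Db, Rab9E, Rab9Fa and Rab9Fb lie on the X chromosome between positions 10417429 and 10952486 (BDGP6), each with 1 annotated transcript and an exon length of 791 to 897 bases. Rab9Fa and Rab9Fb are next to each other, at X 10950160 to 10951030 and 10951609 to 10952486. They are related genes, how the authors treated reads shared between copies is not given in the sources used here, and their zeros are therefore uncertain. Rab9Fb was listed at 2.04 TPM in WT replicate 1 and 1.15 TPM in WT replicate 3, from 26 and 11 reads, and at 0 in the other 6 libraries. The X chromosome carried 13 of the 33 Rab GTPase genes, and each of the arms 2L, 2R, 3L and 3R carried 5.

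The comparison of the genotypes asked which Rab genes differed between WT and CG9005 mutant macrophages. No Rab gene was called in either direction. Of the 35 genes, 24 passed the filter of at least 1 TPM in at least 4 libraries, and 0 of these 24 had a limma adjusted p under 0.05, beside 1.67% of all 7827 tested genes (0.882% higher and 0.792% lower in the mutant). At an unadjusted p under 0.05 there were 4, RabX1 with a fitted change above 0 and Rab4, Rab30 and Rab1 with one below 0, which is 16.7% of the 24 beside 12.1% of all tested genes. Also 0 of 24 were called with voom on recovered reads, beside 1.02% of the genes tested there, and 0 of 29 Rab genes without the filter, beside 0.583%. The median log2 fold change of the 24 was −0.07, beside −0.06 over all tested genes. Of the 24, 14 lay below 0, 58.3%, beside 58.3% of all tested genes, and with each library centred on its median 12 of 24 did. The 95% interval excluded a change of 2-fold in either direction for 18 of the 24 and a change of 1.5-fold for 8. In bulk libraries a difference in the cells of a type cannot be told apart from a difference in RNA per cell.

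**Figure D2:**
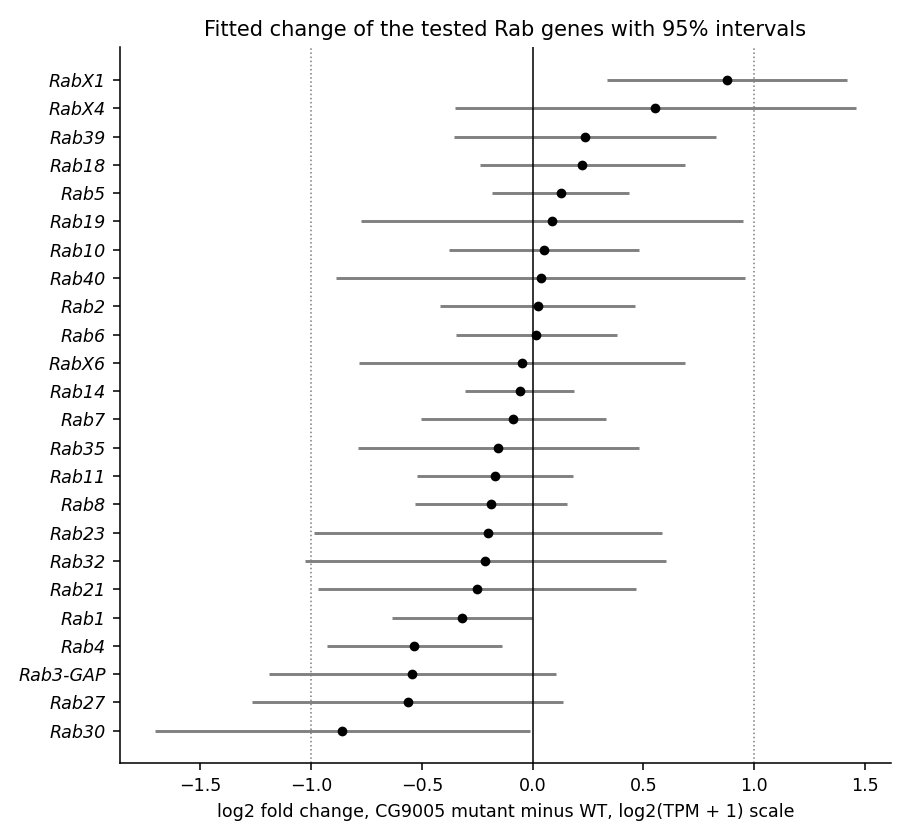
Fitted log2 fold change (CG9005 mutant minus WT, log2(TPM + 1) scale) of the 24 tested Rab genes, with 95% intervals from limma and dotted lines at −1 and 1. The intervals of RabX1, Rab4, Rab30 and Rab1 leave out 0 before adjustment over all tested genes, and none of the 24 had an adjusted p under 0.05.

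For the most abundant Rabs of the endosomal route the groups overlapped. Rab5 was at 455, 397, 519.6 and 444 TPM in the mutant libraries, within or just above the WT range (log2 fold change 0.13, 95% interval −0.18 to 0.44, limma adjusted p = 0.789). Rab7 was at 301, 267, 316 and 244 TPM, inside the WT range (−0.09, −0.51 to 0.33, limma adjusted p = 0.914). Rab14 was at 203, 211, 185 and 204 TPM and had the narrowest interval (−0.06, −0.30 to 0.19, limma adjusted p = 0.896). Rab11 was at 109, 75.7, 95.8 and 82.3 TPM, with the groups overlapping (−0.17, −0.52 to 0.18, limma adjusted p = 0.747). For these 4 genes the interval excluded a 1.5-fold change in either direction. Rab35 was at 61.8, 78.0, 56.5 and 87.5 TPM, and its interval was wide (−0.15, −0.79 to 0.48, limma adjusted p = 0.896). Without WT replicate 3 its log2 fold change was 0.14 (limma adjusted p = 0.825).

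RabX1, a Rab linked to endosomes in fly epithelia, on chromosome 2R (23519839 to 23523613, minus strand) had the highest fitted log2 fold change of the 24. It was at 18.0, 32.5, 19.5 and 39.7 TPM in WT replicates 1 to 4 and at 52.5, 49.8, 48.0 and 44.8 TPM in mutant replicates 1 to 4. Every mutant library was above every WT library, and WT replicate 4 came nearest. The means were 27.4 ± 10.4 and 48.8 ± 3.24 TPM, a ratio of 1.78, and the log2 fold change was 0.88 (SE 0.25, 95% interval 0.34 to 1.42, unadjusted p = 0.00436, limma adjusted p = 0.133). The two-sided exact permutation p was 0.0286, the smallest that 70 assignments of the libraries can give. RabX1 has 1 annotated transcript and shares no exon base with another annotated gene. Without WT replicate 3 its log2 fold change was 0.75 (limma adjusted p = 0.228).

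Rab4 (chromosome 2R, 17573462 to 17574979, plus strand) had a fitted log2 fold change below 0. It was at 78.7, 51.8, 47.5 and 64.7 TPM in WT and at 42.5, 39.0, 40.5 and 41.2 TPM in the mutant. Every mutant library was below every WT library, with a gap of a few TPM between WT replicate 3 and mutant replicate 1. The means were 60.7 ± 14.1 and 40.8 ± 1.46 TPM with a log2 fold change of −0.53 (SE 0.18, 95% interval −0.93 to −0.14, unadjusted p = 0.0125, limma adjusted p = 0.236, exact permutation p = 0.0286). Without WT replicate 3 the log2 fold change was −0.64 (limma adjusted p = 0.126). Groups that did not overlap were thus found for 2 of the 24 tested Rab genes, 8.33%, beside 7.77% of all tested genes (3.25% with the mutant higher and 4.52% with WT higher).

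Rab4 was above RabX1 in every WT library and below it in every mutant library. The ratio of RabX1 to Rab4 was 0.229, 0.628, 0.410 and 0.614 in the WT libraries and 1.23, 1.28, 1.19 and 1.09 in the mutant libraries. A ratio within a library does not depend on how the libraries were scaled. This pair was chosen after its values were seen, so the ratio is a description with no test. Both genes lie on chromosome 2R, as CG9005 does (11619479 to 11640941). Of the tested genes on chromosome 2, 3.08% were called (3.04% on arm 2R), beside 0.776% on chromosomes 3, 4 and X, and the part of position in the Rab values was not tested.

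**Figure D3:**
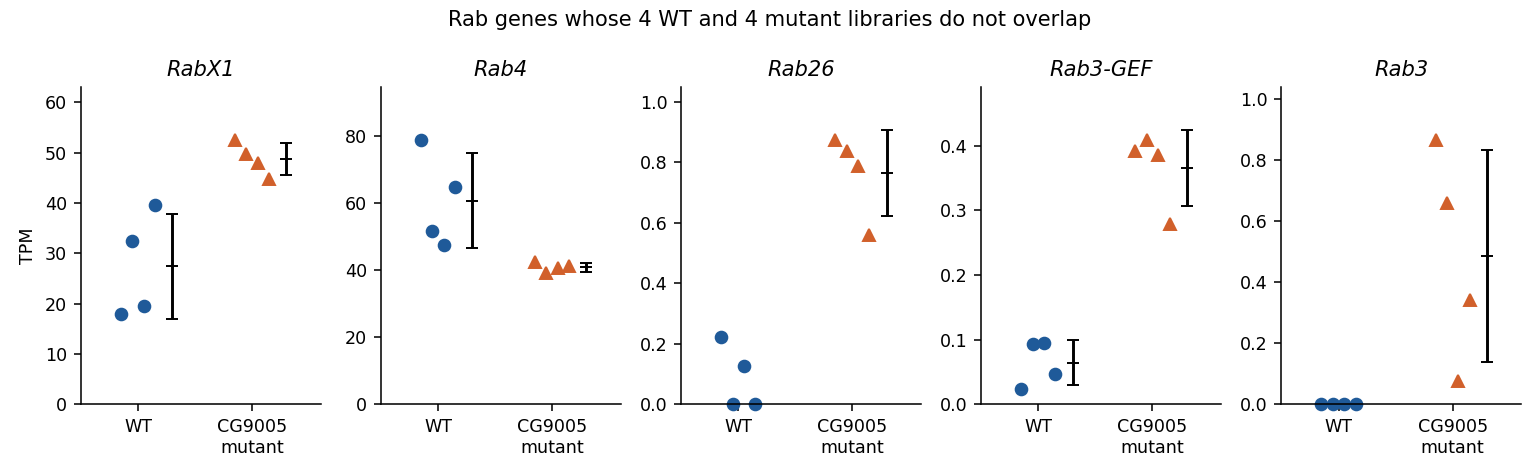
TPM in each library for the 5 Rab genes whose WT and CG9005 mutant libraries did not overlap, with the mean ± SD beside groups that had every library above 0. RabX1 and Rab4 lie between 18.0 and 78.7 TPM, while Rab26, Rab3-GEF and Rab3 are under 1 TPM in all 8 libraries.

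Rab30 and Rab1 of the ER and Golgi group had the other unadjusted p under 0.05. Rab30 was at 14.9, 6.90, 6.996 and 23.8 TPM in WT and at 4.90, 4.34, 8.20 and 6.93 TPM in the mutant libraries (log2 fold change −0.86, 95% interval −1.71 to −0.01, limma adjusted p = 0.402). The groups overlapped, and WT replicates 1 and 4 held the high values. Rab1 was at 173, 152, 203 and 160.3 TPM in the mutant, with mutant replicate 3 inside the WT range (−0.32, −0.64 to −0.003, limma adjusted p = 0.405). Exons of the noncoding RNA asRNA:CR45798 lie on the opposite strand of 41.1% of the Rab1 exon bases, and the strand setting of the counting is not given in the sources used here. Rab2 and Rab6 had log2 fold changes of 0.02 and 0.02 with intervals of −0.42 to 0.46 and −0.35 to 0.38 (limma adjusted p = 0.981 and 0.982). Rab18 was at 46.6, 71.6, 74.0 and 93.7 TPM in WT libraries and at 69.8, 76.4, 99.4 and 81.9 TPM in mutant libraries (0.22, −0.24 to 0.69, limma adjusted p = 0.743).

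The exocytic Rab8 and Rab10 had log2 fold changes of −0.19 (−0.53 to 0.16) and 0.05 (−0.38 to 0.48), with limma adjusted p = 0.708 and 0.962. Rab27 ranged from 3.25 to 7.12 TPM in WT and from 2.61 to 5.37 TPM in mutant libraries (−0.56, −1.27 to 0.14, limma adjusted p = 0.534). Rab3-GAP, the GTPase-activating protein of Rab3, ranged from 3.91 to 5.91 TPM in WT and from 2.09 to 4.52 TPM in mutant libraries (−0.54, −1.19 to 0.10, limma adjusted p = 0.515).

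For the low Rab genes the intervals were wide. RabX4, RabX6, Rab19, Rab21, Rab23, Rab32, Rab39 and Rab40 had log2 fold changes between −0.25 and 0.55 and limma adjusted p between 0.673 and 0.986. On the log2(TPM + 1) scale the intervals of RabX4 and Rab32 reached past 1 or −1. At a few TPM those limits stand for more than a 2-fold change in TPM. The intervals of Rab21, Rab23, Rab40 and RabX6 therefore do not exclude one. The exons of RabX6 overlap those of Vti1a on the opposite strand over 36.2% of their bases, and those of RabX4 overlap Kaz on the same strand over 9.25%. Rab23, a Rab of planar cell polarity, was at 0.376 TPM in mutant replicate 1 and at 1.17 to 2.24 TPM in the other 7 libraries.

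Rab26, Rab3-GEF and Rab3, all tied to synaptic vesicles in neurons, were near zero in WT and above each WT value in every mutant library. Rab26 was at 0.221, 0, 0.127 and 0 TPM in WT and at 0.873, 0.836, 0.788 and 0.559 TPM in the mutant, from 34 to 49 reads per mutant library. Rab3-GEF, the exchange factor of Rab3, was at 0.0237, 0.0927, 0.0951 and 0.0463 TPM in WT and 0.391, 0.409, 0.385 and 0.279 TPM in the mutant, from 3 to 11 and from 34 to 46 reads. Rab3 was listed at 0 in the 4 WT libraries and at 0.867, 0.660, 0.0777 and 0.343 TPM in the mutant, from 42, 32, 4 and 18 reads. The 3 genes did not pass the filter, and in the fit without a filter they had limma adjusted p = 0.0973 for Rab26, 0.256 for Rab3-GEF and 0.324 for Rab3 (exact permutation p = 0.0286 for each, not adjusted). Among the 5213 genes below the filter and above 0 in at least 1 library, 1.82% had every mutant library above every WT library. The reverse held for 0.921%. Genes with a 0 in both groups cannot separate either way, so these shares are not a like background for the 3 genes. The groups overlapped for Rab9 and Rab9Fb, the other Rab genes below the filter with reads. Rab9 was listed at 0 in WT and at 0.822, 0, 0.273 and 0 TPM in the mutant.

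Neuronal markers were read beside these genes. All 9 markers of the list were detected, their sum was 138 to 240 TPM in WT and 136 to 179 TPM in the mutant, and most of it came from elav and Syx1A, which is also on the SNARE list. Of the 5 tested markers, 4 were above 0 and 1 below in log2 fold change, and 0 of 5 were called at a limma adjusted p under 0.05. At an unadjusted p under 0.05 there were 2, cpx and fne, beside 12.1% of all tested genes. Syx1A had a log2 fold change of −0.31 and elav of 0.11, and they were set apart after the values were seen. The 7 markers other than Syx1A and elav summed to 5.28, 6.16, 12.1 and 3.39 TPM in WT. In the mutant these markers summed to 12.0, 19.2, 8.82 and 14.9 TPM. Their part in the values of Rab3, Rab26 and Rab3-GEF was not tested.

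The ER and Golgi group held 25.4% ± 0.512 of Rab TPM in WT and 24.5% ± 1.02 in the mutant (SD, n = 4 each), the recycling group 23.3% ± 3.87 and 21.2% ± 1.82, the late endosome and lysosome group 16.2% ± 2.62 and 15.9% ± 1.11, and the exocytic group 11.6% ± 0.958 and 10.9% ± 1.09. The early endosome group held 20.0% to 22.1% in the WT libraries and 22.3% to 26.1% in the mutant libraries, so every mutant library was above every WT library. Rab5 alone held 19.8% to 21.9% and 22.2% to 25.8%, so this separation rests on 1 gene. In TPM the Rab5 values of the groups overlapped. The remaining genes, with RabX1 as their highest, held 1.78% to 2.53% in WT and 3.27% to 3.99% in the mutant. RabX1 was placed there after its values were seen, and that separation rests on it. Without RabX1 the remaining genes held 0.706% to 1.04% and 0.673% to 1.34%, and with RabX1 in the ER and Golgi group that group held 25.9% to 27.7% and 25.7% to 27.9%. The shares add up to the whole, so they do not move independently. The ratio of Rab5 to Rab7 was 1.28 to 1.70 in WT and 1.49 to 1.82 in the mutant, with overlap. The spread of log2(TPM + 1) was smaller in the mutant group than in WT for 17 of the 24 tested Rab genes, 70.8%, beside 64.7% of all tested genes.

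**Figure D4:**
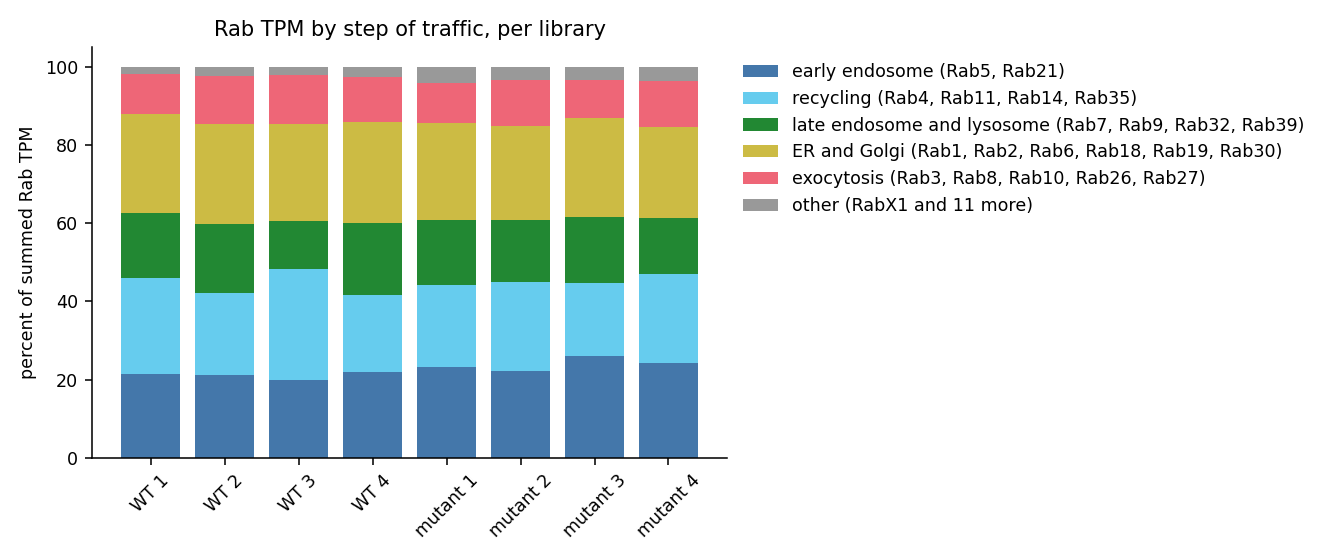
Percent of the summed TPM of the 33 Rab GTPases held by each traffic step in each library. The order of the steps in size varies between libraries. The early endosome share, nearly all of it Rab5, was 20.0% to 22.1% in WT and 22.3% to 26.1% in the mutant.

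The machinery that Rabs act with was read from 9 lists holding 147 genes that are not themselves Rab genes, of which 139 were tested. In these lists 1 gene was called, 0.719% of those tested beside 1.67% of all tested genes, and 9 had an unadjusted p under 0.05, 6.47% beside 12.1%. Their median log2 fold change was −0.08, and 99 of 139 lay below 0, 71.2% beside 58.3% of all tested genes. With each library centred on its median 72 of 139 did, 51.8% beside 49.9%. The called gene was Syx13, a SNARE of early and recycling endosomes, which was at 122, 100.1, 89.8 and 129 TPM in WT and at 66.5, 65.3, 69.3 and 64.7 TPM in the mutant. All 4 mutant libraries were below all 4 WT libraries (means 110.4 ± 18.5 and 66.5 ± 2.04 TPM, log2 fold change −0.71, 95% interval −1.04 to −0.38, limma adjusted p = 0.0428). The call of Syx13 was near the threshold and was kept in 4 of 19 other settings, and leaving out any 1 of the 7 libraries other than WT replicate 3 ended it (limma adjusted p 0.0803 to 0.148). Over all 19 settings its limma adjusted p ran from 0.0214 to 0.499.

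Of the 21 tested SNARE and fusion genes 18 lay below 0, 85.7% beside 58.3% of all tested genes. With each library centred on its median 15 did, 71.4% beside 49.9%. At an unadjusted p under 0.05 there were 3 of the 21, beside 12.1% of all tested genes.

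Among regulators of the Rab cycle, 22 of 24 genes were tested, 0 were called and 1 had an unadjusted p under 0.05. That gene was strat, the fly homologue of the Rab-binding protein Mss4 that acts with Rab8, at 9.76, 19.3, 13.6 and 26.4 TPM in WT and 31.0, 22.3, 36.1 and 38.0 TPM in the mutant libraries (log2 fold change 0.90, 0.26 to 1.55, limma adjusted p = 0.219), with the groups overlapping. With the stage field as a covariate, which barely separates from genotype, the sign of strat turned (−0.12, limma adjusted p = 0.955). Rabex-5, the exchange factor of Rab5, averaged 69.3 ± 4.61 TPM in WT libraries and 55.7 ± 8.73 TPM in mutant libraries (−0.32, −0.66 to 0.02, limma adjusted p = 0.441). Of 17 tested effectors 0 were called, and cbs, a Golgin of the trans-Golgi, had the smallest p (log2 fold change 0.62, limma adjusted p = 0.377). The homologue of PLEKHM1, a late endosomal adaptor in mammals, deposited as CG6613, was next at 0.54 (limma adjusted p = 0.440).

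The list for the tethers HOPS and CORVET, which bring endosomes to lysosomes and to each other, had 9 tested genes. These include Vps16B and Vps33B, relatives of subunit genes rather than subunit genes of these tethers. Of the 9, 0 were called at a limma adjusted p under 0.05 and 0 had an unadjusted p under 0.05. Vps16B averaged 2.52 ± 0.975 TPM in WT libraries and 4.87 ± 1.79 TPM in mutant libraries (limma adjusted p = 0.426), and the CORVET subunit gene Vps8 averaged 7.11 ± 1.64 and 5.53 ± 1.18 TPM (limma adjusted p = 0.718). Retromer and sorting nexin genes, which return cargo from endosomes, had 11 of 13 tested members below 0, 84.6% beside 58.3% of all tested genes. Their median was −0.22, with 0 calls at a limma adjusted p under 0.05 or an unadjusted p under 0.05. The sorting nexin gene CG5734 (−0.42, limma adjusted p = 0.497) and the retromer subunit gene Vps26 (0.30, limma adjusted p = 0.526) had the smallest p.

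ESCRT genes, which sort cargo into the inner vesicles of late endosomes, had 17 of 18 tested members below 0, 94.4% beside 58.3% of all tested genes. Their median was −0.13 beside −0.06 over all tested genes, with 0 calls. The ESCRT-III gene shrb averaged 312 ± 30.7 TPM in WT libraries and 252 ± 17.6 TPM in mutant libraries (log2 fold change −0.30, limma adjusted p = 0.322), and Hrs, which binds ubiquitinated cargo, averaged 21.2 ± 4.63 and 16.1 ± 0.831 TPM (limma adjusted p = 0.555). Of these 18 genes 1 had an unadjusted p under 0.05. With each library centred on its median, 12 of the 18 lay below 0, 66.7% beside 49.9% of all tested genes, and the median of the 18 was −0.06. For retromer and sorting nexins 10 of 13 then lay below 0, 76.9%.

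Clathrin and its adaptors, which form the vesicles that feed Rab5 endosomes, had 22 tested genes, 0 calls and 1 unadjusted p under 0.05. That was Amph, a membrane-bending protein known in the fly from muscle, with means of 1.18 ± 0.824 TPM in WT libraries and 3.77 ± 1.55 TPM in mutant libraries (log2 fold change 1.18, limma adjusted p = 0.249). Muscle markers were higher beside it, with 6 of 7 tested above 0, 2 called and a sum of 31.7 to 55.8 TPM in WT and 85.5 to 187 TPM in the mutant, and their part in the Amph value was not tested. Hip1, an adaptor between clathrin and actin, was at 4.55 ± 1.02 and 2.79 ± 0.474 TPM (−0.54, limma adjusted p = 0.482). The exocyst, an effector of Rab11 that tethers vesicles at the plasma membrane, had 8 tested genes and 0 calls, with Sec10 at 7.70 ± 1.80 and 13.2 ± 2.37 TPM (0.71, limma adjusted p = 0.240) and Sec5 at 14.2 ± 1.69 and 18.3 ± 3.24 TPM (0.34, limma adjusted p = 0.582, and −0.19 with the stage field as a covariate). Of the phosphoinositide enzymes, which write and erase the lipids that Rab5 and Rab7 endosomes carry, 10 were tested and 0 called. The lipid phosphatase gene mtm was at 29.3 ± 7.30 and 19.7 ± 1.01 TPM (−0.52, limma adjusted p = 0.335), and Uvrag, a partner of the lipid kinase Vps34, at 10.1 ± 0.919 and 6.72 ± 2.12 TPM (−0.56, limma adjusted p = 0.423).

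**Figure D5:**
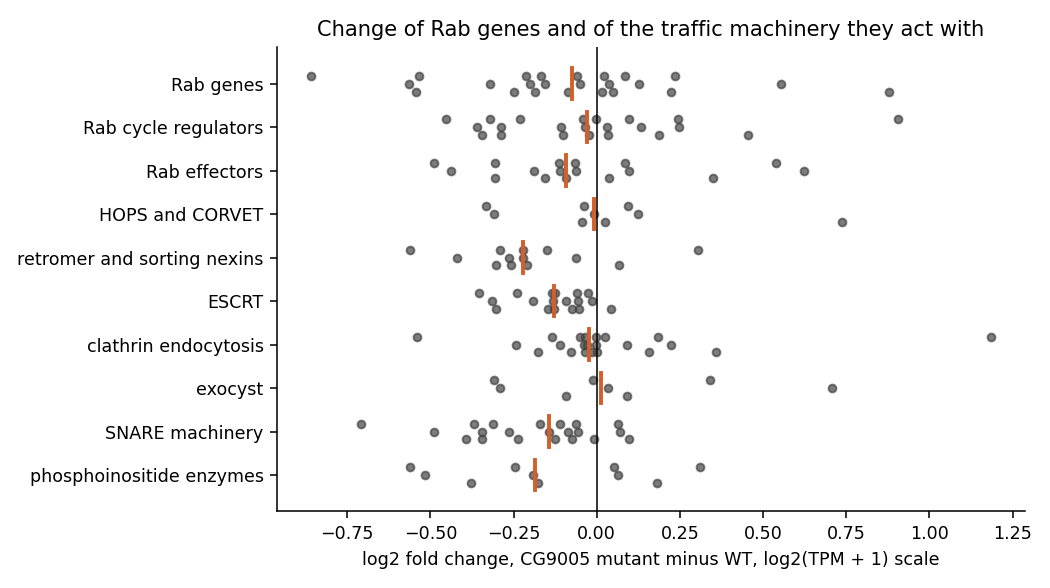
Log2 fold change (CG9005 mutant minus WT, log2(TPM + 1) scale) of the tested Rab genes and of the tested genes in 9 lists of traffic machinery, with 1 point per gene and an orange bar at each median. The medians lie between −0.22 for retromer and sorting nexins and 0.01 for the exocyst, and Syx13 is the leftmost point of the SNARE machinery. With each library centred on its median, the medians of the Rab cycle, HOPS and CORVET, and clathrin lists move above 0.

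The comparison was also read in the authors' deposited table, which held 29 of the 35 Rab genes. None of the 29 had an adjusted p under 0.05 in the authors' deposited table, beside 0.579% of its 11058 genes. In the authors' deposited table Rab3, Rab26 and Rab3-GEF had an unadjusted p under 0.05 (p = 0.00190, 0.00388 and 0.0318, adjusted p = 0.165, 0.254 and 0.776), and RabX1 had a log2 fold change of 0.96 (p = 0.0659). The share of all its genes at that unadjusted p is not given here. Rab4, Rab30 and Rab1 also lay below 0 in the authors' deposited table, with unadjusted p = 0.669, 0.246 and 0.976.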

How the data were processed

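The authors deposited 1 TPM column per library over 17494 genes, each summing to 1000000, and a comparison table with log2 fold changes and p-values with adjusted p-values, in 4 identical copies of which 1 was used. The group means in that table (TPM) and their SDs, listed as a signal, and a signed fold change, listed as a score, were deposited by the authors too and were not used. The submitters' processing notes list R 3.4.4, limma, edgeR, HTSeq 0.5.4p3 and STAR 2.5.1b with build BDGP6, without their roles, and the labels' protocols give reads of 50 bases.

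TPM multiplied by union exon length (Ensembl release 115, BDGP6) gave whole reads within 0.05 reads for 98.8% to 99.0% of genes above 0. These recovered reads gave depth and a voom fit. No library was a duplicate: within groups the chi-square of recovered reads per gene was 36.7 to 113.

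The test was limma 3.58.1 (R 4.3.3) on log2(TPM + 1) with intensity trend, genotype as the only term, at least 1 TPM in at least 4 libraries, and Benjamini-Hochberg adjustment over all 7827 genes. With 1 library left out the filter needed 3 of 7. Fold changes on this scale understate changes of low genes. Exact permutation tests were two-sided, on the mean log2(TPM + 1). All Rab genes are named; in each traffic list the genes called are named or, with none called, the 2 with the smallest p. Members and lists were chosen with earlier results of these data known, and RabX1 was moved from the ER and Golgi group to the remaining genes after its values were seen. Alternatives are given in the closing part.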

Additional observations from a re-analysis of the deposited data

Results flagged for a closer look

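In 4 of 55 groups of 4 libraries a single library stood far from the other 3, where chance gives about 1 in 20 groups. Rab40 was at 6.52 TPM in mutant replicate 1 and at 1.91 to 2.11 TPM in the other mutant libraries. Rab32 was at 5.09 TPM in the same library and at 1.18 to 1.67 TPM in the others. Rab27 was at 5.37 TPM in mutant replicate 3, beside 2.61 to 2.92 TPM. RabX6 was at 2.45 TPM in WT replicate 4, beside 5.16 to 5.37 TPM. None of the 4 genes was called with or without that library.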

How the results depend on the processing

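No Rab gene was called in any of 19 other fits or at the other thresholds, and the lowest limma adjusted p was 0.0583, for RabX1 without WT replicate 4. RabX1, Rab4, Rab30 and Rab1 were among the 10 of 24 that kept their sign in every fit that held them; the other 14 changed sign in at least 1. The log2 fold change of RabX1 ran from 0.51 to 1.08 and that of Rab4 from −0.64 to −0.32.

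Of all tested genes 131 were called, and the count was 76 with no filter, 75 with a filter of 10 TPM, 52 with the replicate block, 9 with the stage field as a covariate, 78 with voom, 210 at an adjusted p under 0.1, 51 at an adjusted p under 0.01, and 71 to 110 without single libraries. Same-numbered libraries had correlations of deviations of −0.146 to 0.077. With 4 libraries per group these values cannot tell if the shared numbers mark pairs, and the labels do not say. Among traffic genes the 1 call became 0 with a pseudocount of 0.1, no filter, quantile normalisation, median centring, the replicate block, the stage field, no intensity trend, voom and an adjusted p under 0.01, and was 0 to 1 without single libraries. Their median became −0.27 with the stage field, where 2 of the 17 named genes, strat and Sec5, turned sign. The 2 Rab GTPases between the level classes became 1 with a limit of 0.5 TPM and 1 to 2 without single WT libraries. Tested Rab genes with groups that do not overlap numbered 2 to 5 without single libraries, an alternative chosen after seeing the data, with 5 without mutant replicate 3 (20.8%, beside 12.6% of all tested genes there). The causes of these changes were not tested.

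Depth was ample for the abundant Rab genes and thin for those under 1 TPM, as with Rab26, at 0 and 14 reads in different WT libraries.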
